A study of Mus musculus with 6 samples.

Results

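The BTB zinc finger (BTB-ZF) genes are a family of transcription factor genes to which Zbtb16, the gene of PLZF, belongs. They were taken as the array rows whose only annotated gene symbol was Zbtb followed by a digit, or Bcl6, Bcl6b, Patz1, Hic1 or Hic2, with the row of the highest mean over the 6 arrays for a gene with several rows. This gave 42 genes, on 45 rows, of 22180 genes measured. Another 9 rows whose symbols begin in this way but which also name a second gene, among them all rows of Zbtb11 and Zbtb26, were not used.

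The arrays profiled mouse iNKT cells, T cells with an invariant receptor for lipid antigens, with 3 arrays for WT control mice and 3 for PLZF_ON mice, whose PLZF protein is held in its acetylated state. The labels give no other allele, treatment or age for either group. The sources used here do not give the organ, the way the cells were isolated, how the PLZF_ON allele was made or in which cells it is active. The study named replicates 1 and 2 of each group as the arrays it analysed, so the comparison over these 4 arrays is given first and the one over all 6 beside it. The labels do not say whether replicates were separate animals, so the p-values rest on differences among these samples that may be technical in origin.

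A BTB-ZF protein carries a BTB domain at its start, through which it pairs with a partner and recruits corepressor complexes, and zinc fingers at its end that bind DNA. Many members steer lymphocyte development. PLZF drives the innate-like programme of iNKT cells and its level differs between their subsets, being high in the interleukin-4-producing NKT2 cells and lower in the interferon-gamma-producing NKT1 cells. ThPOK, encoded by Zbtb7b, holds T cells in the CD4 lineage, and Bcl6 is needed for follicular helper T cells and germinal centre B cells.

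Median log2 values of the 6 arrays lay between 4.88 and 5.01. PLZF_ON replicate 3 stood apart from the other 5 arrays, with correlations of 0.895 to 0.898 against 0.957 to 0.973 among those 5, and an SD over rows of 1.79 against 1.97 to 2.01. All 9 measured T and iNKT cell markers, Cd3e and Icos among them, were above background in both groups, and 0 of 5 B cell markers were. In both groups 3 of 3 NK cell markers and 2 of 5 double-positive thymocyte markers were above background. So were 1 of 3 hepatocyte and 1 of 4 stromal and epithelial markers. Of 6 myeloid markers 0 were above it in WT and 1 in PLZF_ON. Background here is a log2 level of 5.21, below which 95% of 1390 genes for olfactory or vomeronasal receptors had their mean over the 6 arrays. Over the 4 arrays alone this level was 5.08. The mean log2 level of 5 markers of double-positive thymocytes, the immature cells that carry both CD4 and CD8, was 6.46 in PLZF_ON replicate 3 and between 4.54 and 4.71 on the other arrays. Within that list Dntt was at 7.19 and Cd8b1 at 7.77 in that library, against at most 4.10 and 5.89 elsewhere. The mean of 6 myeloid markers was 5.02 there, against 4.23 to 4.46, with Lyz2 at 6.58, against 3.96 to 4.48. NK cell markers, which iNKT cells share in part, averaged 5.79 to 7.45 in WT and 5.32 to 7.75 in PLZF_ON. In bulk RNA of this kind fewer cells of a type and less RNA per cell cannot be told apart.

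Zbtb16 had the highest array level of the family on each of the 6 arrays. The WT arrays read 9.96, 10.19 and 9.82 (log2) for Zbtb16, above 98.6% to 99% of all genes on the same array. The next member, Zbtb44, was at 8.04, 8.03 and 7.99 on these WT arrays, a gap of 1.97 between the means. These are array signals, and since probes of different genes respond differently, the order is one of signals and not of transcript numbers. In PLZF_ON the level of Zbtb16 was 10.48 and 10.68 in replicates 1 and 2 and 9.54 in replicate 3. Both of the first PLZF_ON arrays lay above every WT array, and the third lay below every WT array. The 4-array log2 difference of Zbtb16 was 0.51, or 1.42-fold (SE 0.15, 95% interval 0.13 to 0.88), with an unadjusted limma p of 0.0161 and an adjusted p of 0.369, where adjustment was by Benjamini-Hochberg over 23521 rows. Over 6 arrays it was 0.24 (SE 0.30, interval -0.44 to 0.93, limma adjusted p = 0.941), and without PLZF_ON replicate 3 it was 0.59. The arrays read RNA and not acetylation, so Zbtb16 is no test of the genotype here.

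**Figure D1:**
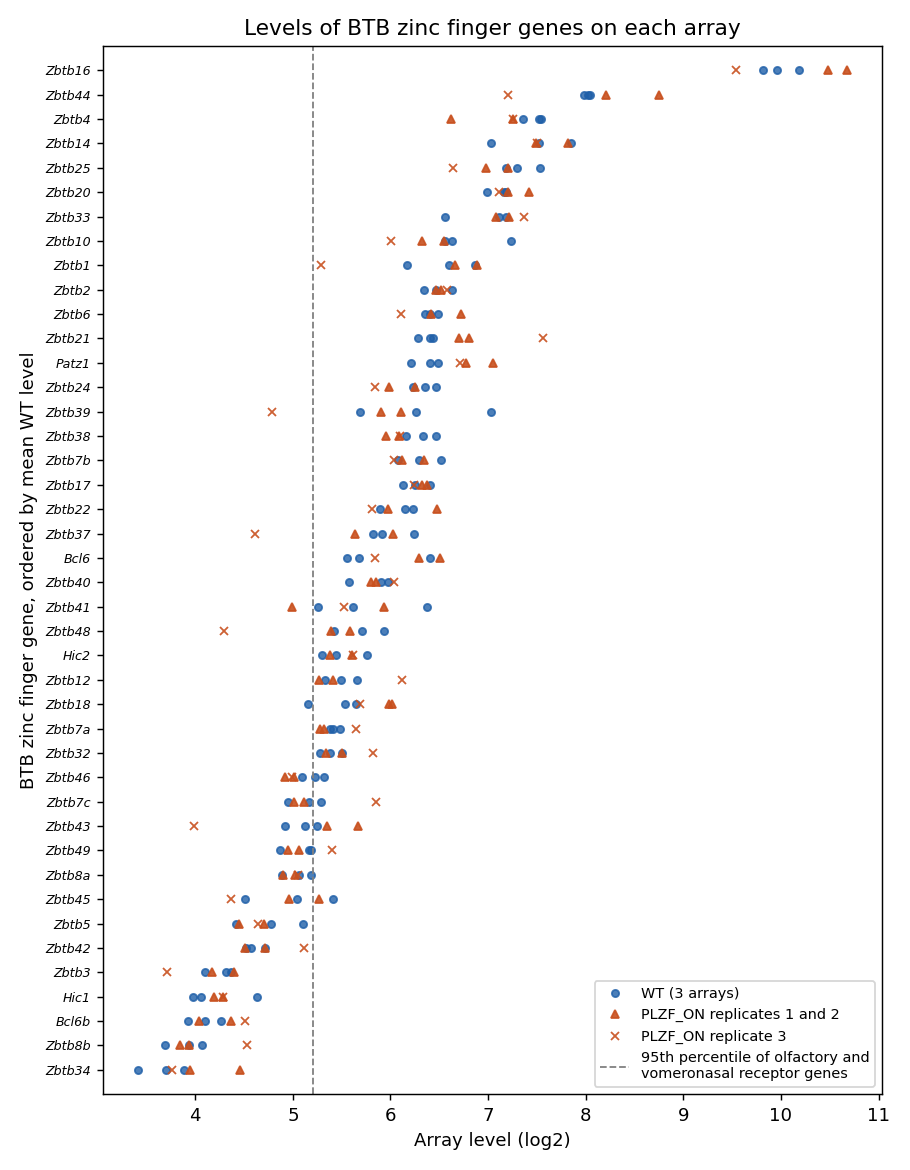
Array level (log2, horizontal axis) of the 42 BTB-ZF genes, ordered from top to bottom by mean WT level; circles are the 3 WT arrays, triangles PLZF_ON replicates 1 and 2, and crosses PLZF_ON replicate 3. Zbtb16 is highest, and the dashed line at 5.21 is the background level, above which 30 of the 42 genes lie in WT.

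The median WT level of the family was 5.85, against 5.03 over all genes. Of the 42 members 30 (71.4%) were above background in WT cells, against 46.5% of all genes. In the order of WT means Zbtb44 was followed by Zbtb4 at 7.47, Zbtb14 at 7.47, Zbtb25 at 7.34, Zbtb20 at 7.11, Zbtb33 at 6.95, Zbtb10 at 6.81, Zbtb1 at 6.54 and Zbtb2 at 6.48. For 37 of 41 pairs of neighbours in this order the ranges of the 3 WT arrays overlapped. The exceptions were the steps from Zbtb16 to Zbtb44, from Zbtb44 to Zbtb4, from Zbtb25 to Zbtb20 and from Zbtb42 to Zbtb3, so the order within the rest of the list is not fixed by these arrays. The lowest levels were those of Zbtb3, Hic1, Bcl6b, Zbtb8b and Zbtb34, all of them below background. Zbtb46, known as a marker of conventional dendritic cells, had a WT mean of 5.21, at the background level.

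The comparison of PLZF_ON with WT asked whether other BTB-ZF genes differ at the RNA level when PLZF is kept acetylated. Over the 4 arrays 22 of the 42 members were higher in PLZF_ON and 20 lower, with a median log2 difference of 0.01, against 49.1% of all genes higher and a median of -0.004. The count passing a limma adjusted p of 0.05 was 0, against 0.162% of all genes (0.0947% higher and 0.0676% lower in PLZF_ON), and the smallest adjusted p in the family was 0.148. An unadjusted limma p under 0.05 was reached by 6 members (14.3%), against 9.19% of all genes. These were Bcl6, Zbtb18, Zbtb16, Zbtb43, Patz1 and Zbtb21. All 6 were higher in PLZF_ON, a direction in which 4.68% of all genes had such a p, with 4.5% in the other. The family is brighter than the array as a whole. With only genes above background in WT, such a p was reached by 5 of 30 members and by 1464 of 10305 genes, which are nearer shares. This cut leaves out Zbtb43. With a cut of 5.08 on the higher group mean over the 4 arrays, 6 of 33 members reached it. All genes were not counted at that second cut. Of the 1464 genes at the first cut, 690 were higher and 774 lower. Differences ran from -0.53 for Zbtb41 to 0.78 for Bcl6, so 0 members differed by more than 1 on the log2 scale, against 1.29% of all genes. Standard errors of the members lay between 0.13 and 0.41.

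**Figure D2:**
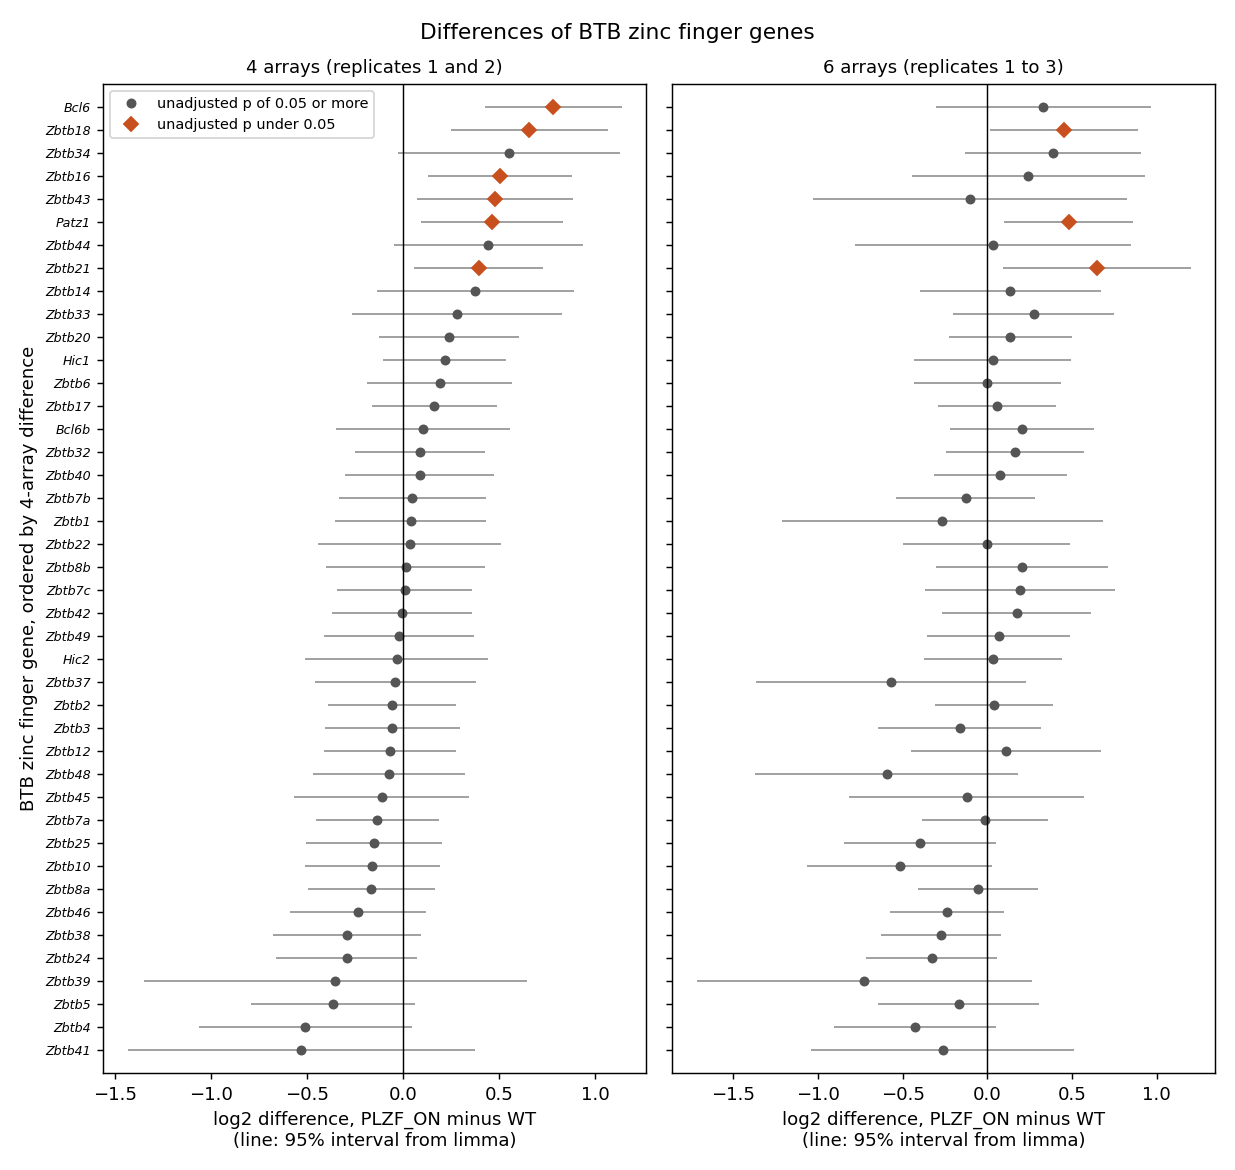
log2 difference of PLZF_ON minus WT (horizontal axis) for the 42 BTB-ZF genes over 4 arrays (left) and 6 arrays (right), with limma's 95% interval as a line and diamonds for an unadjusted p under 0.05. On the left the 6 diamonds, from 0.39 for Zbtb21 to 0.78 for Bcl6, all lie above 0, and on the right only Zbtb21, Patz1 and Zbtb18 keep one.

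Among members with a role in lymphocytes, Bcl6 had the largest difference over 4 arrays, and Patz1 over 6. It was at 5.67 and 5.55 in WT replicates 1 and 2 and at 6.50 and 6.29 in PLZF_ON replicates 1 and 2. Replicate 3 showed the opposite order, with 6.41 in WT and 5.84 in PLZF_ON. The 4-array difference was 0.78, or 1.72-fold (SE 0.15, interval 0.43 to 1.14, limma adjusted p = 0.148). Over 6 arrays the groups overlapped and the difference of Bcl6 was 0.33 (interval -0.30 to 0.97, limma adjusted p = 0.941).

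Patz1, also called MAZR, represses the CD8 genes and Zbtb7b in developing T cells. Its level was 6.40, 6.48 and 6.21 in WT and 6.77, 7.05 and 6.72 in PLZF_ON, so every PLZF_ON array was above every WT array. The difference was 0.46 over 4 arrays (SE 0.15, limma adjusted p = 0.407) and 0.48 over 6 (interval 0.10 to 0.86, limma adjusted p = 0.69). Zbtb7b itself was at 6.07, 6.29 and 6.52 in WT and at 6.35, 6.12 and 6.03 in PLZF_ON. The groups of Zbtb7b overlapped, with a 4-array difference of 0.05 (interval -0.33 to 0.43) and a 6-array difference of -0.13 (interval -0.54 to 0.28).

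Among the other lymphocyte regulators, Zbtb20, which acts in plasma cells, was at 7.16, 6.99 and 7.18 in WT and 7.42, 7.21 and 7.11 in PLZF_ON. Zbtb17, the Myc partner Miz-1 that supports early lymphocytes, had a 4-array difference of 0.16 (interval -0.16 to 0.49). Zbtb1, required for lymphoid development, was at 6.60, 6.87 and 6.17 in WT and at 6.66, 6.89 and 5.29 in PLZF_ON. The low value of Zbtb1 thus came from PLZF_ON replicate 3, and over the 4 arrays its difference was 0.04. Zbtb32, a repressor induced in activated lymphocytes, and Zbtb7a, the factor LRF, had 4-array differences of 0.09 and -0.13. Over the 10 lymphocyte regulators, among them Hic1 and Bcl6b with WT levels below background, the 4-array median was 0.13. Higher in PLZF_ON were 9 over 4 arrays, against 49.1% of all genes, and 7 over 6, against 55%. The members given this role were chosen with earlier results of these data known. The shares of all genes are thus no fair baseline for these counts. In replicate 3 alone 4 of the 10 were higher, with a median of -0.11, and 3 kept the sign of the 4-array difference.

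Zbtb18, a repressor best known from neurons, and Zbtb21 completed the members that were higher in all 3 PLZF_ON arrays. Zbtb18 was at 5.53, 5.15 and 5.65 in WT and at 6.02, 5.98 and 5.69 in PLZF_ON. Its groups were separated by only 0.04 in replicate 3, and the difference was 0.66 over 4 arrays (SE 0.17, limma adjusted p = 0.269) and 0.45 over 6 (limma adjusted p = 0.84). Zbtb21 was at 6.43, 6.28 and 6.41 in WT and at 6.70, 6.80 and 7.56 in PLZF_ON. Here the highest value was that of PLZF_ON replicate 3, and the difference was 0.39 over 4 arrays (limma adjusted p = 0.439) and 0.65 over 6 (interval 0.09 to 1.20, limma adjusted p = 0.755). Zbtb43 was at 4.92, 5.13 and 5.25 in WT and at 5.35, 5.66 and 3.98 in PLZF_ON. The first PLZF_ON pair of Zbtb43 was above all WT arrays and the third far below them, and the 6-array difference was -0.10. The WT mean of Zbtb43, 5.10, lay under the background level of 5.21. Over the 4 arrays its WT mean of 5.03 was under the level of 5.08, and its PLZF_ON mean of 5.505 above it.

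Of 5 members that bind methylated DNA or act at centromeres and telomeres, all above background in WT, 4 were lower in PLZF_ON over 4 and over 6 arrays. Of all genes above background, 5331 of 10305 were lower over 4 arrays, and 36.6% were higher over 6. An unadjusted limma p under 0.05 was reached by 0 of the 5 members. This group too was chosen with earlier results of these data known, so those shares are no fair baseline for it. Zbtb4, which binds methylated CpG sites, was at 7.54, 7.36 and 7.52 in WT and at 7.26, 6.62 and 7.26 in PLZF_ON. All 3 PLZF_ON arrays of Zbtb4 were below all WT arrays, with a difference of -0.51 over 4 arrays (SE 0.23, interval -1.06 to 0.05, limma adjusted p = 0.585) and -0.43 over 6 (limma adjusted p = 0.919). Zbtb38, of the same methyl-CpG-binding group, was at 6.46, 6.16 and 6.33 in WT and at 6.09, 5.96 and 6.10 in PLZF_ON, again without overlap. Zbtb24, whose human counterpart is mutated in an immunodeficiency with unstable centromeres, differed by -0.29 over 4 arrays and by -0.33 over 6. Zbtb33, which encodes Kaiso, was the member of this group with a higher level, by 0.28 over 4 arrays (interval -0.27 to 0.83), and Zbtb48, a telomere-binding factor, differed by -0.07. In Zbtb48 the array of PLZF_ON replicate 3 was at 4.30, against 5.39 to 5.93 on the other 5.

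**Figure D3:**
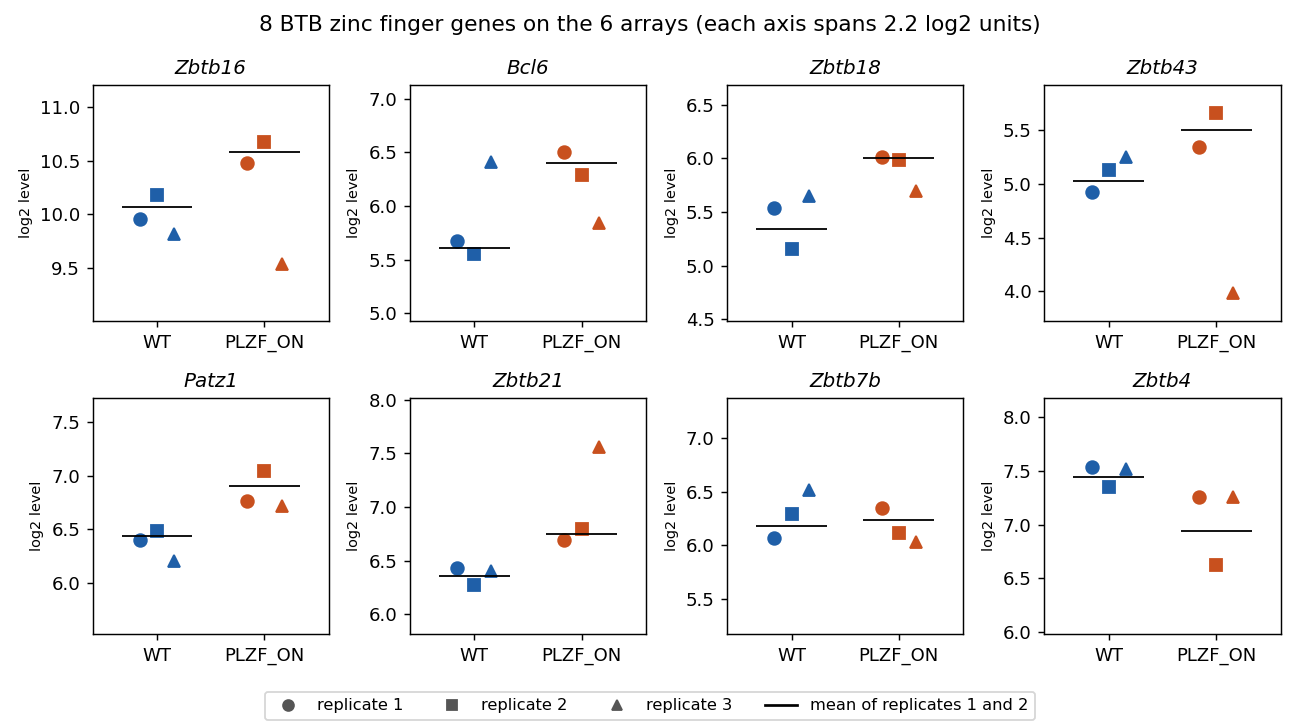
log2 level (vertical axis, each panel spanning the same range of log2 units) of 8 BTB-ZF genes on the 6 arrays; the symbol shape gives the replicate and the line the mean of replicates 1 and 2. Patz1, Zbtb21 and Zbtb18 are higher and Zbtb4 lower on all 3 PLZF_ON arrays, while Zbtb16, Bcl6 and Zbtb43 are higher in PLZF_ON replicates 1 and 2 and lower in replicate 3 than the WT array of the same number.

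Counted over all 6 arrays, 3 members (7.14%) were higher on every PLZF_ON array than on every WT array, against 5.47% of all genes, and 4 (9.52%) were lower, against 6.27%. The 3 were Patz1, Zbtb18 and Zbtb21, and the 4 were Zbtb4, Zbtb10, Zbtb38 and Zbtb46. All of them are among the 30 members above background in WT. Of all 10305 genes above background, 398 were higher and 1182 lower without overlap over 6 arrays. Over the 4 arrays 12 members were higher without overlap (28.6%, against 18.8% of all genes) and 8 lower (19.0%, against 19.3%). By limma over 6 arrays 0 members passed an adjusted p of 0.05, against 0.0947% of all genes (0.0271% higher and 0.0676% lower). An unadjusted p under 0.05 was reached by 3, all higher, against 5.64% of all genes (2.3% higher and 3.33% lower). In all 23 members were higher over 6 arrays, with a median of 0.03, against 55% of all genes and the same median. Above background, 53.3% of members were higher over 6 arrays, with a median of 0.017. Of all genes above background 36.6% were, with a median of -0.093, and this difference was not tested.

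Zbtb14 was measured by 3 rows. The row with the highest mean had WT levels of 7.03, 7.52 and 7.85 and PLZF_ON levels of 7.82, 7.49 and 7.50, which overlap. A second row was at 6.55, 6.53 and 6.29 in WT and at 7.04, 6.99 and 7.04 in PLZF_ON. In that row every PLZF_ON array was higher, by 0.48 over 4 arrays (limma adjusted p = 0.292) and 0.57 over 6, and in the third row the differences of Zbtb14 were 0.36 and 0.40. The rows of Zbtb14 thus had the same sign but a different separation of the groups. The pair of rows of Hic2 had differences of -0.03 and 0.07 over 4 arrays, in opposite directions and both within their errors.

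Replicate 3 of each group served as a separate look at the family, since its arrays were not part of the 4-array comparison. In replicate 3 alone 19 of 42 members were higher in PLZF_ON, with a median of -0.11, and 21 of 42 (50%) had the same sign as over the 4 arrays, against 51.4% of all genes. Across the 42 genes the differences from replicate 3 and from the 4 arrays had a Pearson r of 0.07 and a Spearman rho of 0.07, given as a description, since genes on the same arrays are not independent. In replicate 3 Zbtb48 differed by -1.63, Zbtb37 by -1.63, Zbtb39 by -1.47, Zbtb43 by -1.27, Zbtb10 by -1.24 and Zbtb21 by 1.15, so 6 members differed by more than 1. PLZF_ON replicate 3 was the highest of the 6 arrays for 11 members and the lowest for 15, together 61.9% of members, against 67.3% of all genes. In this library the thymocyte and myeloid markers given above were highest, as were the means of hepatocyte (5.44, against 4.70 to 4.88), erythroid (5.22, against 4.70 to 4.88) and B cell markers (4.32, against 3.96 to 4.12). Its T and iNKT cell markers had the lowest mean, 8.89 against 9.40 to 9.83. These marker values and the narrower spread are from the same library as the PLZF_ON replicate 3 values of the BTB-ZF genes. Their part in the BTB-ZF values was not tested.

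**Figure D4:**
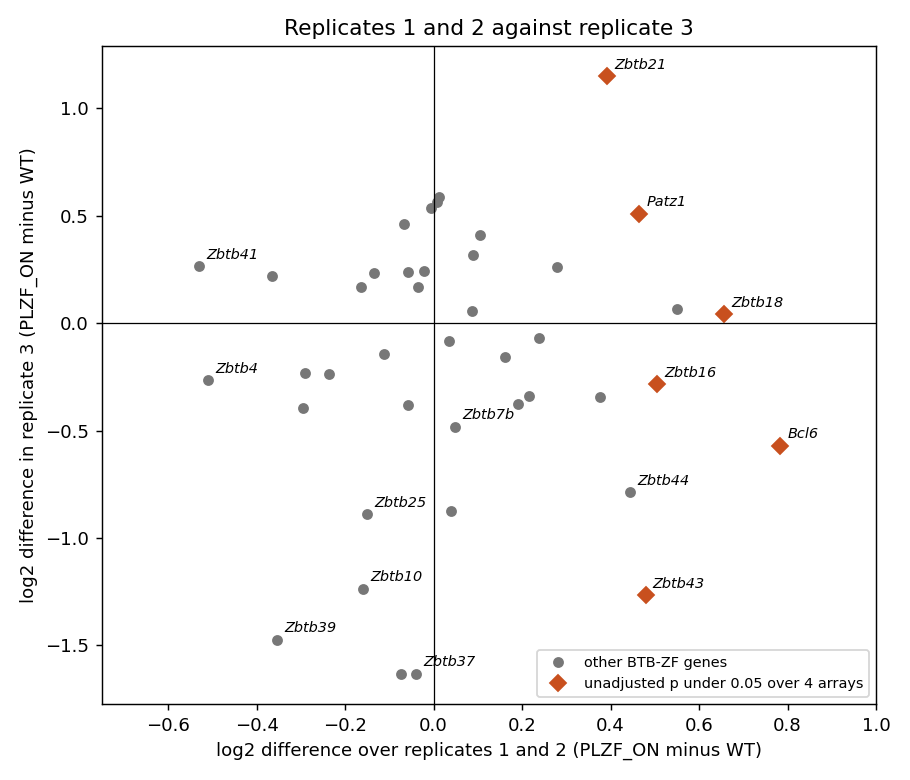
log2 difference of PLZF_ON minus WT in replicate 3 (vertical axis) against the difference over replicates 1 and 2 (horizontal axis) for the 42 BTB-ZF genes; diamonds mark an unadjusted limma p under 0.05 over the 4 arrays. Patz1, Zbtb21 and Zbtb18 lie above 0 on both axes, Zbtb16, Bcl6 and Zbtb43 lie below 0 on the vertical axis, and r over the 42 genes is 0.07.

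Promoters of the members with the lowest p-values are shown because they hold matches to sites of factors named here. RefSeq promoter windows of build GRCm38.p6, each of 300 bases that span a transcription start, were found for 36 of the 42 members, on 52 starts. Members without a window were Bcl6b, Zbtb10, Zbtb16, Zbtb40, Zbtb48 and Zbtb7c. The motifs searched on both strands were GCGNGGGCG, the site of Egr factors, TTCNNNGAA, the GAS element of STAT factors, TTCCTNGAA, a GAS element of the form that Bcl6 binds, and TCCTGCNA, a Kaiso site. Sequences run 5′ to 3′ on the strand of the gene, with matches in capitals.
Bcl6, chr16:23981234-23981533, - strand: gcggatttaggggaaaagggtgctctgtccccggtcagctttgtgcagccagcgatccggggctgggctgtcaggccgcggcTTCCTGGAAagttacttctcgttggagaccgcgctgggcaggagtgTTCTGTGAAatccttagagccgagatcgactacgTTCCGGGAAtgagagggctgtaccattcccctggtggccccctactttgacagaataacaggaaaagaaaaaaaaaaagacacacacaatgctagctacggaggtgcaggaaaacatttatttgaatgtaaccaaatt
Bcl6, chr16:23988803-23989102, - strand: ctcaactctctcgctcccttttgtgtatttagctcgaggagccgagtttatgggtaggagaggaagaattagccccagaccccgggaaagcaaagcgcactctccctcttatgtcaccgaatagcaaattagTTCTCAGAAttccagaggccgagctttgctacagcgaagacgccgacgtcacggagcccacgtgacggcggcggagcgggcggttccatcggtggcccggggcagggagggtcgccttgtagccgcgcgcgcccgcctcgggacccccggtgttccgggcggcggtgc
Patz1, chr11:3290207-3290506, + strand: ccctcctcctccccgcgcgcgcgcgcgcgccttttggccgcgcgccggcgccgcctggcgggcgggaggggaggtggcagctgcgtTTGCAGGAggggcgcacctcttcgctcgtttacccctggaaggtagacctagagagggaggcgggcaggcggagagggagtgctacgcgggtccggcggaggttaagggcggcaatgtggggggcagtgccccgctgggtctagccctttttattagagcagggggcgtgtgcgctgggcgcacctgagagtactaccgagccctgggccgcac
Zbtb18, chr1:177442101-177442400, + strand: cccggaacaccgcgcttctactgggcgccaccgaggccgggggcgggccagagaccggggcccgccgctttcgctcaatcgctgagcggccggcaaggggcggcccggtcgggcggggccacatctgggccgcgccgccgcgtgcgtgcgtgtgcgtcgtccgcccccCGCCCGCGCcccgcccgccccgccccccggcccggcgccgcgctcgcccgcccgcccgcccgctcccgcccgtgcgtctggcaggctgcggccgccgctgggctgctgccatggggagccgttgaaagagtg

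In the first Bcl6 window 3 GAS matches stand in capitals, and TTCCTGGAA, the first of them, also matches the Bcl6 form and so overlaps it fully. The second Bcl6 window holds a single GAS match, Patz1 a Kaiso match on the reverse strand and Zbtb18 an Egr match on the reverse strand. Of the other 4 windows of Zbtb18, 3 overlap and hold Kaiso matches. The windows of Zbtb21 and Zbtb43 held no match, which says only that these letters are not in them. Over all starts of the family, an Egr match was found in 8 of 52 (15.4%), against 5.55% of 32851 starts of all genes, a GAS match in 3 (5.77%, against 8.3%), the Bcl6 form in 1 (1.92%, against 1.59%) and a Kaiso match in 5 (9.62%, against 4.96%). Promoters of the family were richer in G and C, with a median of 63% against 52.7%, and had a median observed to expected CpG ratio of 0.76 against 0.38. Starts of the same gene overlap in some cases, so these windows are not independent, and a match is a description of letters and not a binding site.

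Positions in the gene table set 3 pairs of members next to each other among protein-coding genes. Zbtb34 and Zbtb43 had 4-array differences of 0.55 and 0.48, Zbtb25 and Zbtb1 of -0.15 and 0.04, and Zbtb8a and Zbtb8b of -0.16 and 0.01. Zbtb34 was at 3.42, 3.89 and 3.70 in WT and at 3.94, 4.46 and 3.76 in PLZF_ON. These levels of Zbtb34 are far below background, so its difference is between dim signals.

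Genes that act upstream of Zbtb16 were 16 in number, all measured, and 0 passed a limma adjusted p of 0.05 over the 4 arrays. At an unadjusted limma p under 0.05, 6 were higher and 2 lower, against 4.68% and 4.5% of all genes. This list and the gene lists below were chosen with earlier results of these data known. The share of all genes is thus no fair baseline for their counts. Egr2, a T cell receptor-induced factor that activates Zbtb16 in iNKT precursors, was higher by 0.97 (SE 0.13, limma adjusted p = 0.075), and by 0.79 over 6 arrays. Tox and Myb, needed for early iNKT development, differed by 0.96 and 0.76, and by 0.65 and 0.73 over 6 arrays. In replicate 3 alone Tox differed by 0.02 and Myb by 0.67. Runx3, a factor of cytotoxic lymphocytes, differed by -1.51 (SE 0.30, limma adjusted p = 0.165), and by -1.48 over 6 arrays. The median of this list was 0.17 over 4 arrays, against -0.004 over all genes, and 0.08 over 6, against 0.03.

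Corepressors and modifiers of BTB-ZF proteins, 16 measured genes, had a median of -0.01 over 4 arrays and of -0.22 over 6. Over the 4 arrays 0 passed limma's adjusted p, and 0 were higher and 4 lower at an unadjusted p under 0.05, against 4.68% and 4.5% of all genes. Mta3, a NuRD subunit that works with Bcl6, differed by -0.48, the class IIa deacetylase Hdac7 by -0.46, Cul3, the ubiquitin ligase scaffold that binds BTB proteins and PLZF, by -0.38, and the deacetylase Sirt1 by -0.36 over 4 arrays (SE 0.13 to 0.15, limma adjusted p from 0.34 to 0.492). Cul3 was at 10.24, 10.15 and 10.05 in WT and at 9.83, 9.79 and 8.97 in PLZF_ON. Ep300, an acetyltransferase known to act on PLZF, differed by -0.02 (interval -0.36 to 0.33) over the 4 arrays.

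Genes that work beside Bcl6 in T cells included the only listed gene to pass over all rows, Lef1, which rose by 1.62 (SE 0.16, with 2 arrays in each group and a limma adjusted p = 0.0347). The call on Lef1 was lost without WT replicate 1 (limma adjusted p = 0.0786), PLZF_ON replicate 1 (0.081) or PLZF_ON replicate 2 (0.221), and over 6 arrays, where the difference was 1.12 (limma adjusted p = 0.577). Of the other measured genes among these 13, Irf4 differed by 1.39, Pdcd1, the receptor PD-1, by 1.24, and the transcription factor Maf by -1.03 over 4 arrays. Over 6 arrays the groups of these 3 genes overlapped, with differences of 0.88, 0.96 and -0.46, and in replicate 3 alone Irf4 differed by -0.16 and Maf by 0.70. Prdm1, the antagonist of Bcl6, lay between 5.84 and 6.01 in WT and between 5.33 and 6.18 in PLZF_ON, which overlap. In the CD4-CD8 list of 10 genes 0 passed and Cd4 itself differed by 1.28 (limma adjusted p = 0.115), with all 3 PLZF_ON arrays above all WT arrays.

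Genes linked to PLZF in innate-like T cells were measured for 14 of 16, and 0 passed limma's adjusted p over 4 or 6 arrays. At an unadjusted limma p under 0.05 over the 4 arrays, 6 were higher and 4 lower, against 4.68% and 4.5% of all genes. Since this list too was chosen with earlier results known, these counts are a description only. S1pr1 and Ccr7, receptors that guide T cells out of tissues and into lymph nodes, differed by 1.24 and 1.25, and Tbx21, the NKT1 factor T-bet, and the memory marker Cd44 by -1.53 and -1.06. Tbx21 was at 8.76, 8.42 and 8.56 in WT and at 7.37, 6.75 and 7.58 in PLZF_ON. It was thus low also on PLZF_ON replicate 3, where Zbtb16 had its lowest level, and the part of the make-up of iNKT subsets in the BTB-ZF values was not tested.

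**Figure D5:**
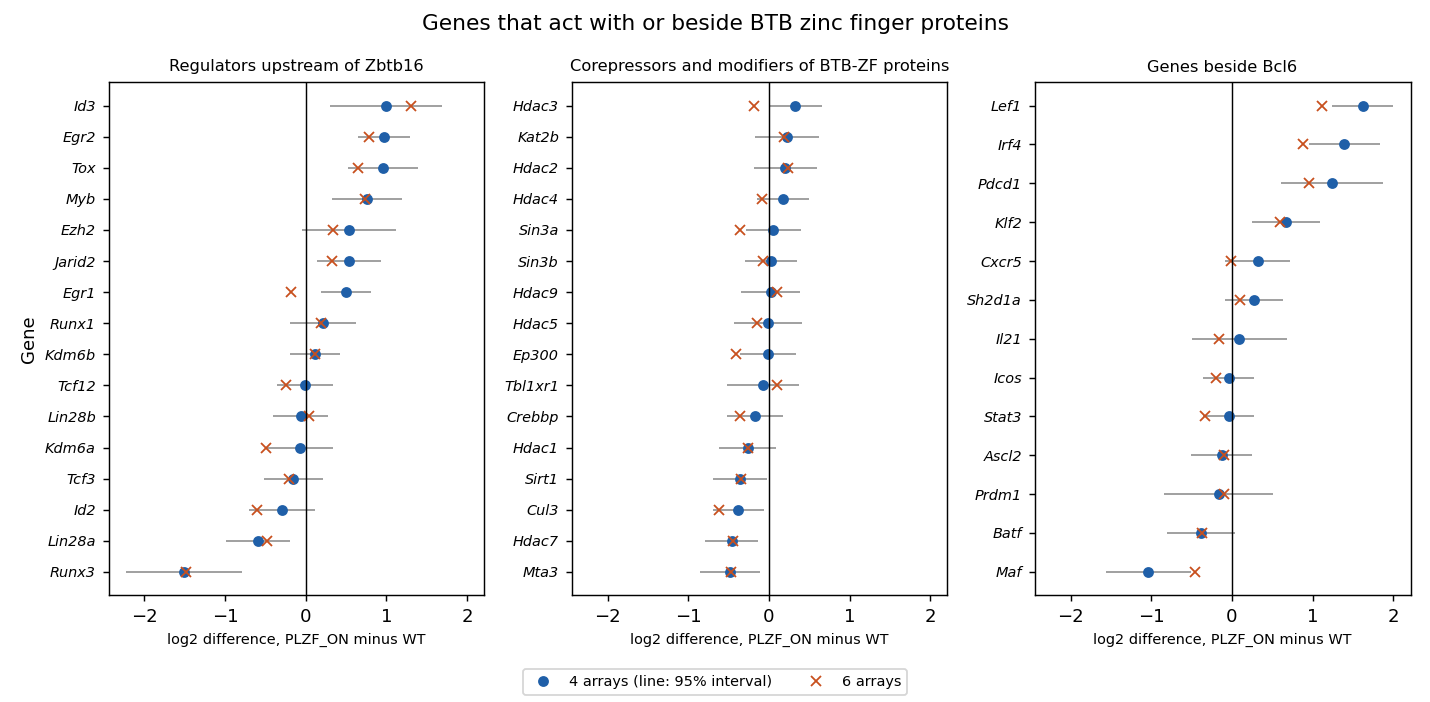
log2 difference of PLZF_ON minus WT (horizontal axis) for genes upstream of Zbtb16, corepressors and modifiers of BTB-ZF proteins, and genes beside Bcl6; circles with 95% interval lines are the 4-array values and crosses the 6-array values. Lef1 at 1.62 and Runx3 at -1.51 lie farthest from 0 over 4 arrays, and the corepressor values lie between -0.48 and 0.33.

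As the family closest in domain make-up, the BTB-kelch genes, which pair a BTB domain with kelch repeats, were set beside the BTB-ZF genes. They were taken as symbols of Klhl followed by a digit, 37 genes. Their median WT level was 5.12, with 48.6% above background, against 5.85 and 71.4% in the BTB-ZF family. Their median 4-array difference was -0.04, and 3 had an unadjusted limma p under 0.05, 1 of them higher, against 9.19% of all genes. The difference between the families was not tested.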

How the data were processed

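RNA of iNKT cells was measured on Affymetrix whole-transcript arrays, per the labels' protocols. The deposited values are on a log2 scale, as the values themselves show, and the submitters' processing notes name RMA, which subtracts background, brings arrays to a common distribution and summarises probes; the sources used here do not name the authors' annotation or build. Rows with exactly 1 gene symbol (23521 of 41345) were tested as deposited, with no filter. PLZF_ON was compared with WT by limma 3.58.1 in R 4.3.3 (lmFit, eBayes, two-sided, genotype as the only term), with Benjamini-Hochberg adjustment over all tested rows at 0.05. Residual degrees of freedom were 2 over 4 arrays and 4 over 6, with 4.10 and 3.78 from the prior. Arrays carry no depth, and their number limits the precision.

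Named were Zbtb16, Zbtb7b and Bcl6, the 10 members with the highest WT level, members with an unadjusted p under 0.05 over 4 arrays, separate groups and a higher mean above background, members whose rows differ in direction, the 5 lowest members by name, and up to 4 genes per other list by p. Other members, and the other marker and list genes given with values (Dntt, Cd8b1, Lyz2, Ep300 and Prdm1), were named after their values were seen. Members and lists were chosen with earlier results of these data known. Promoters came from RefSeq (GRCm38.p6). Scripts were tested on simulated data with changes larger than any fitted difference of a member. That test thus does not show whether changes of the size seen here would be called. Figures were drawn with matplotlib 3.10.9.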

Additional observations from a re-analysis of the deposited data

How the results depend on the processing

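No BTB-ZF gene passed an adjusted limma p of 0.05 under any of 13 alternatives over 4 arrays or 15 over 6, and Zbtb16 ranked first by WT level in all 7 alternatives tried. The 4-array difference of Zbtb16 lay between 0.39 and 0.62 without a replicate and between 0.51 and 0.52 otherwise (limma adjusted p 0.224 to 0.786), and the 6-array one between 0.02 and 0.59 and between 0.22 and 0.52. The median of the family over 4 arrays ran from -0.047 to 0.094 without a replicate. The 6 members with an unadjusted p under 0.05 became 10 with the replicate block, all 6 among them with Zbtb34 higher and Zbtb4, Zbtb41 and Zbtb5 lower, and 3 to 10 without a replicate (3 without PLZF_ON replicate 2, of which Bcl6 and Zbtb18 were among the 6, and 10 without WT replicate 2). The 3 over 6 arrays became 7 with array weights, and 2 to 8 without a replicate, with 8 without PLZF_ON replicate 3 and 5 without PLZF_ON replicate 1. With the mean of its rows Hic2 had a 4-array difference of 0.016, the opposite sign. Without a replicate the sign turned in Hic2 (-0.264 to 0.196), Zbtb7b (-0.066 to 0.163), Zbtb33 (-0.033 to 0.593), Zbtb1 (-0.092 to 0.171) and Zbtb2 (-0.137 to 0.022). The causes were not tested. Replicate numbers were not taken as pairs, since the labels do not say so. Deviations of arrays of the same number correlated at 0.09, 0.25 and 0.24 over 6 arrays and at 0.13 over 4. Those of different numbers correlated at 0.12, -0.03, -0.04, -0.19, -0.2 and -0.24 over 6 arrays. These values do not settle whether the numbers mark pairs, so the fit with the replicate block is given beside the main one. With the replicate block over 6 arrays 3 members had an unadjusted p under 0.05, with Zbtb4, which was lower, in place of Zbtb18. Counts of members stayed close to those reported with only brighter rows, all deposited rows, a trended prior, median centring or a further quantile normalization.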

Other observations

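Outside the naming rule, 3 more genes encode proteins with a BTB domain and zinc fingers. Zfp131 was at 7.24, 7.24 and 7.04 in WT and at 7.46, 7.24 and 5.57 in PLZF_ON, Mynn at 6.17, 5.75 and 5.65 in WT and at 5.82, 6.02 and 4.07 in PLZF_ON, and Gzf1 at 5.76, 6.12 and 5.74 in WT and at 5.70, 6.34 and 5.85 in PLZF_ON. For Zfp131 and Mynn the lowest array was PLZF_ON replicate 3.

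Rows that name a family member beside another gene were not assigned to either. A row named for Zbtb11 and the ribosomal protein gene Rpl24 was at 7.80, 7.81 and 7.71 in WT and at 7.62, 7.76 and 6.81 in PLZF_ON. The row named for Zbtb8os and Gm8539 was at 7.34, 7.44 and 7.62 in WT and at 8.03, 7.70 and 7.96 in PLZF_ON, with every PLZF_ON array above every WT array. Zbtb8os lies beside a BTB-ZF gene and is named after it, but encodes archease, a protein of RNA ligation.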
